A study of Mus musculus with 62 samples.

Results

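The integrated stress response and the unfolded protein response were followed here through 35 listed genes in RNA-seq counts of CD11b+ cells, which the series title calls microglia. The 35 genes were fixed by name and matched by symbol, and each was found among the 53801 gene identifiers of the count table. Of these, 34 passed the filter on low counts, together with 19865 genes in all. The 35th, Stc2, reached at most 5 counts in a library and was not tested. By role, 8 members are sensors and transcription factors, 14 are targets of the type that Atf4 controls, 11 are chaperones and folding factors of the endoplasmic reticulum, and 2 act in degradation of misfolded proteins. The cells came from 4 genotypes: wild type (WT), Nlrp3 knockout (NLRP3), APP/PS1 (APPPS1), and APP/PS1 on the Nlrp3 knockout (APPPS1_NLRP3). APP/PS1 mice carry transgenes for amyloid precursor protein and presenilin and are used as a model of Alzheimer's disease with amyloid plaques, and the promoter of the transgenes is not given in the sources used here. Nlrp3 codes for the sensor of an inflammasome. Ages were 4, 6 and 12 months (4m, 6m, 12m), and further 12-month libraries bear the tag Mxo4, whose meaning no label gives. The order WT, NLRP3, APPPS1, APPPS1_NLRP3 holds for the group sizes: 4, 4, 3 and 4 libraries at 4 months, 5, 4, 4 and 5 at 6 months, 3, 4, 5 and 4 at 12 months, and 3, 3, 4 and 3 with the tag. Libraries are named by group and replicate number.

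Proteins fold in the endoplasmic reticulum with the help of chaperones such as Hspa5 (BiP). When unfolded proteins build up, the membrane sensors Ern1 (IRE1), Eif2ak3 (PERK) and Atf6 are known to respond. Ern1 splices Xbp1 mRNA, and Xbp1 and Atf6 raise chaperone and degradation genes. Eif2ak3, like other kinases that sense amino acid shortage, haem lack or viral RNA, phosphorylates the initiation factor eIF2alpha, which slows translation and favours that of Atf4. Atf4 is known to raise amino acid transporters, tRNA synthetases and factors such as Ddit3 (CHOP) and Trib3. Much of the control of Atf4, Xbp1 and the sensors takes place after transcription, so their mRNA is only part of their activity.

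Depth and labels were checked over the whole series. The total was 27604393 counts in the deepest library, with a median of 18392142.5. Only 659 counts were found in APPPS1_6m replicate 21, which was kept for fitting but gives no levels, so levels cover 61 libraries. NLRP3_12m replicate 45 held 1394435 and APPPS1_12m replicate 41 held 6187249 counts, and the next total was 11484943. APPPS1_12m_Mxo4 replicate 56 stood apart from its group. Psat1, a serine synthesis enzyme and Atf4 target outside the 35, was at 38.7 CPM (counts scaled by library size and TMM factors) in it and between 232.1 and 249.2 CPM in the other 3 libraries. WT_12m_Mxo4 libraries lay between 29.1 and 48.3 CPM. The edgeR fit was therefore also run without these 4 libraries. Levels, overlaps between groups, list levels, correlations and marker sums were not recomputed and cover the 61 libraries. Nlrp3 lay between 60.4 and 271.1 CPM in the 30 libraries with the intact gene and between 0 and 2.27 CPM in the 31 of the knockout groups. Microglial genes were high throughout, P2ry12 between 3318.1 and 8184.2 CPM and Tmem119 between 1045.7 and 2807.0 CPM. Sex was read from Xist and Y-linked genes. All libraries of WT_12m and APPPS1_12m were female and all of NLRP3_12m and APPPS1_NLRP3_12m were male. Whether each library is a separate animal is not stated in the labels, and p-values therefore reflect the spread between libraries, which may be technical. In bulk RNA, fewer cells of a type and less RNA per cell cannot be told apart.

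The promoters show how the lists differ in sequence. RefSeq windows of GRCm38.p6, from 250 bases before to 50 after the start of the gene, were found for 31 members, all but Atf6, Manf, Nars and Slc7a5. Each was searched on both strands for the endoplasmic reticulum stress element (ERSE: CCAAT, any 9 bases, CCACG) and the C/EBP-ATF response element (CARE, TGATGNAAN). Of 32851 promoter windows in the table, 0.119% held the ERSE and 3.95% the CARE. Members were counted once each, by any of their windows, whereas these shares are per window. Atf5 and Vldlr had more than a single window. The ERSE was in 6 of the 10 chaperones with a window and in 0 of the 12 Atf4-type targets with a window. The CARE was in 7 of those 12 targets and in 0 of the 10 chaperones. It was also found in Atf3 and in Herpud1. Neither TGACGTGG (in 0.676% of all windows) nor TGACGTCA (1.79%) occurred in a member's window. The ERSE copies follow, since they mark the chaperones whose levels are described below, with the 2 conserved ends and the spacer between them in capitals, each read in the direction of the motif on the strand given:
Hspa5, chr2:34772020-34772048, + strand: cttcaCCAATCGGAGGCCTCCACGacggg
Hsp90b1, chr10:86705633-86705661, - strand: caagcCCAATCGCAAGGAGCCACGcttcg
Hsp90b1, chr10:86705528-86705556, + strand: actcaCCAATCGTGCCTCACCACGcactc
Calr, chr8:84847070-84847098, + strand: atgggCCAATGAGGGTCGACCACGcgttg
Canx, chr11:50325795-50325823, - strand: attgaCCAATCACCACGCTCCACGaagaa
Pdia6, chr12:17266486-17266514, + strand: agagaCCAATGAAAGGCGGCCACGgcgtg
Creld2, chr15:88819515-88819543, - strand: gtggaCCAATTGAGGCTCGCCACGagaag

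The member with the largest rises among the chaperones, Sdf2l1, had no full ERSE in its window. It is shown with its CCAAT box in capitals, followed by CARE copies of Atf4-type targets and of Atf3 and Herpud1 with the CARE in capitals. The Trib3 copy starts 13 bases after the RefSeq start of the gene, and the others lie before the start, that of Asns within an annotated exon of a longer transcript of the gene:
Sdf2l1, chr16:17132430-17132458, - strand: gctgcacacggtCCAATagcagtgcagga
Gars, chr6:55037960-55037988, - strand: gcccggtgcaTGATGAAATagcgcagcca
Asns, chr6:7693214-7693242, - strand: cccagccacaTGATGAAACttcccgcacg
Slc7a11, chr3:50443661-50443689, - strand: ctcatgtggcTGATGCAAAcctggagaat
Trib3, chr2:152344029-152344057, + strand: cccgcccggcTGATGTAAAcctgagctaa
Atf3, chr1:191183426-191183454, + strand: gcggacttggTGATGCAAGtgcgagaagg
Herpud1, chr8:94386306-94386334, - strand: gggtgcgggcTGATGCAACccgccgtggt
A match is a run of letters and was not tested as a binding site.

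Per kilobase of gene model, members differed widely in level. The median over 61 libraries was 734.3 CPM per kb for Atf3, 429.0 for Hspa5, 413.6 for Pdia3, 320.6 for Hsp90b1 and 309.6 for Calr. Asns, the asparagine synthetase that is a standard Atf4 target, was at 0.967 CPM per kb, Trib3 at 0.319, Atf5 at 0.332 and Chac1 at 0.0794. Hspa5, Pdia3, Hsp90b1 and Calr were thus far above Asns, Trib3, Atf5 and Chac1 in level. The lists as wholes overlapped, the chaperones Manf and Sdf2l1 being at 26.5 and 75.8 and the Atf4-type target Slc3a2 at 105.3. Fold changes of Trib3 (median 12 counts per library), Atf5 (12) and Chac1 (2) rest on few counts.

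Differences are log2 values ± standard error from edgeR's quasi-likelihood test, and a call means an adjusted p (Benjamini-Hochberg, 19865 genes) below 0.05. Members whose libraries did not overlap between groups are pointed out; over all genes, 9.87% to 27.3% had no overlap in the 6 transgene comparisons from 6 months on. The first question was how the members differ with the transgenes. With Nlrp3 intact, APPPS1 against WT gave 0 calls at 4 months, where 0.0252% of all genes were called, 1 member had an unadjusted p under 0.05 and DESeq2 called 0. At 6 months 2 members were higher and 3 lower, where 3.03% of all genes were called, 2.06% higher and 0.967% lower. At 12 months 9 were higher and 1 lower, where 18.1% of all genes were called, 11.1% higher and 6.96% lower. With the tag 1 was higher and 0 lower, where 5.07% were called, 3.44% higher and 1.64% lower. Without Nlrp3, APPPS1_NLRP3 against NLRP3 gave 0 calls at 4 months (0.0101% of all genes, 1 member with an unadjusted p under 0.05, 0 by DESeq2). At 6 months 10 were higher and 1 lower, against 8.03% of all genes called, 6.16% higher and 1.87% lower. At 12 months 7 were higher and 1 lower, against 8.69%, 5.53% higher and 3.17% lower. With the tag 1 was higher and 2 lower, against 5.14%, 3.5% higher and 1.64% lower. The rises fell mainly in the chaperone list, as the map of transgene differences shows.

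**Figure D1:**
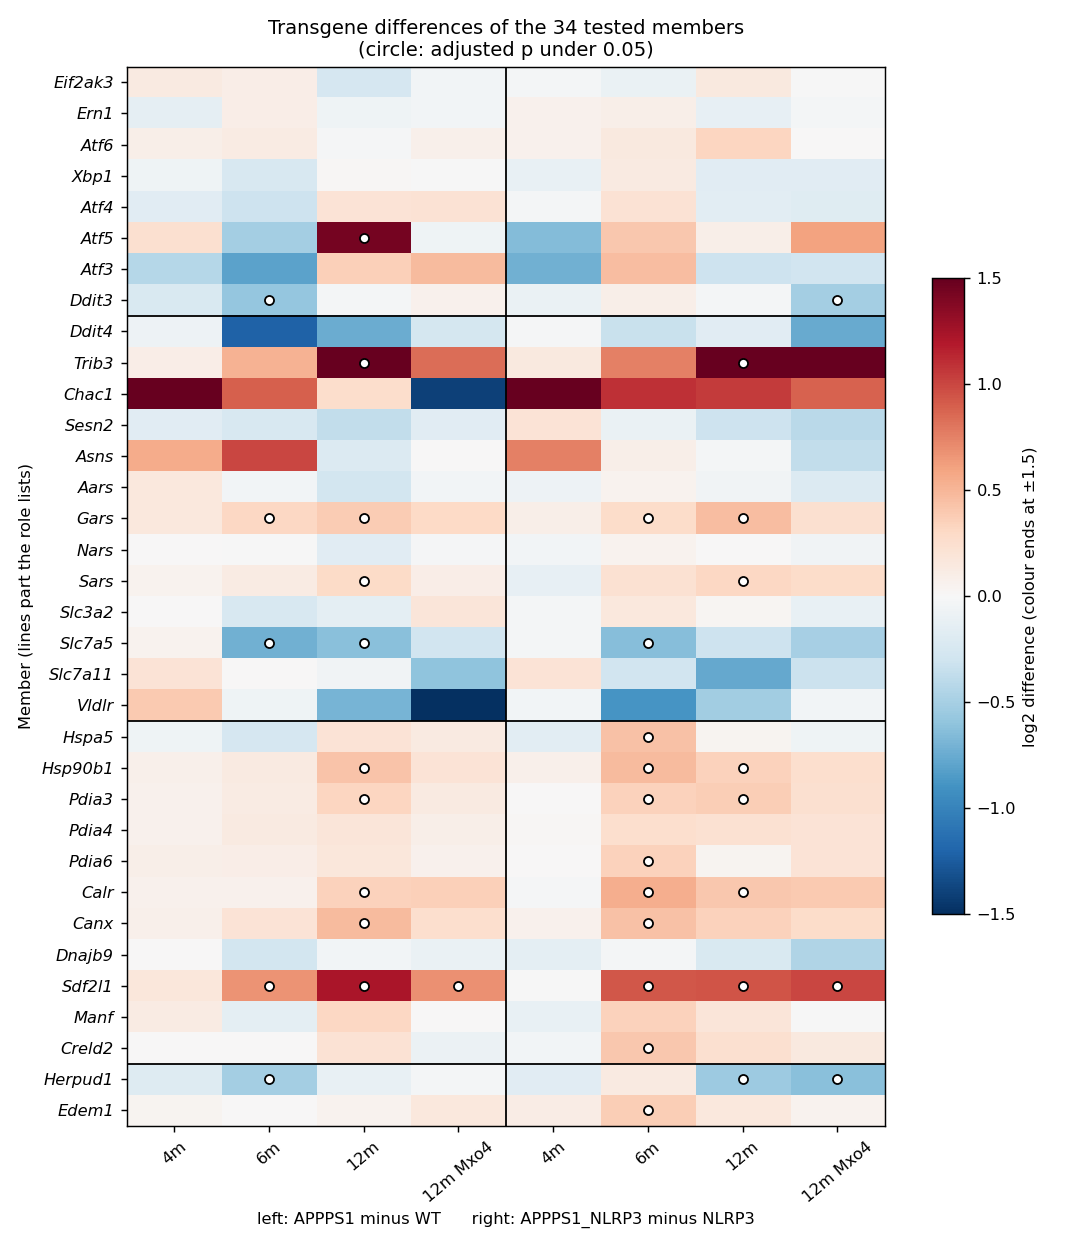
Log2 differences of the 34 tested members (rows, parted by role) in the 4 comparisons of APPPS1 with WT (left columns) and the 4 of APPPS1_NLRP3 with NLRP3 (right columns), with circles where the adjusted p was under 0.05. Sdf2l1 is marked in 6 of the 8 columns, and the strong colours of Chac1 rest on a median of 2 counts per library and bear no circle.

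Among the sensors, none was called with the transgenes. Eif2ak3, Ern1 and Atf6 had adjusted p-values of at least 0.13 in the 8 transgene comparisons. Xbp1, whose spliced form drives chaperone and degradation genes, differed by -0.24 ± 0.09 at 6 months (adjusted p = 0.13, edgeR) and by 0.02 ± 0.09 at 12 months (adjusted p = 0.9) between APPPS1 and WT. Atf4 differed by -0.31 ± 0.13 (adjusted p = 0.2) and by 0.20 ± 0.13 (adjusted p = 0.29) in the same comparisons. The counts do not tell spliced from unspliced Xbp1.

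Ddit3 (ENSMUSG00000025408, chr10:127290774-127296288, + strand), the pro-apoptotic factor CHOP, was lower in APPPS1_6m. Its libraries were at 38.5, 34.6 and 42.9 CPM, against 55.7, 56.4, 61.9, 55.2 and 58.7 CPM in WT_6m. The groups did not overlap, and the difference was -0.58 ± 0.13 (adjusted p = 0.0051, edgeR), a call lost without APPPS1_6m replicate 23 (adjusted p = 0.083). In the same comparison 8 of 20 immediate-early genes, which respond to the handling of cells, were lower (median -0.78), against 0.967% of all genes. Their summed level lay between 10028.2 and 12141.2 CPM in APPPS1_6m and between 15339.1 and 23014.3 CPM in WT_6m. Their part in the result was not tested. Without Nlrp3, Ddit3 at 6 months differed by 0.09 ± 0.12 (adjusted p = 0.71). With the tag it was 49.1, 52.5 and 43.7 CPM in APPPS1_NLRP3_12m_Mxo4 and 72.4, 59.1 and 70.6 CPM in NLRP3_12m_Mxo4, a difference of -0.51 ± 0.14 (adjusted p = 0.023) that was no longer called without any 1 of 4 of the 6 libraries. The Ddit3 model overlaps Mars on the other strand, and the strand setting of the counting is not given in the sources used here.

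Atf5, a factor translated much like Atf4, was called once, at 12 months with Nlrp3. It lay between 0.672 and 2.17 CPM in APPPS1_12m and between 0.0671 and 0.609 CPM in WT_12m (1.44 ± 0.51, adjusted p = 0.042, edgeR). Without APPPS1_12m replicate 41, its highest library, the difference was 1.08 (adjusted p = 0.16), and leaving out APPPS1_12m replicate 35, WT_12m replicate 34 or WT_12m replicate 39 ended the call as well.

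Of the Atf4-type targets, 3 were higher and 1 lower in APPPS1_12m against WT_12m, while the median of the 13 tested was -0.17, against -0.07 over all genes. The corresponding values without Nlrp3 were 3 higher, 0 lower and a median of -0.03, against -0.05 over all genes. Of all genes 11.1% were called higher and 6.96% lower with Nlrp3, and 5.53% and 3.17% without it. Members of this list thus went both ways, with Gars, Sars and Trib3 called higher and the amino acid transporter Slc7a5 called lower.

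Gars (ENSMUSG00000029777, chr6:55038007-55079500, + strand), the glycyl-tRNA synthetase, was the most regular of them. In APPPS1_12m it was at 100.8, 104.0, 92.5, 109.8 and 83.1 CPM and in WT_12m at 85.5, 72 and 72.1 CPM. The groups overlapped by 1 library each, and the difference was 0.38 ± 0.09 (adjusted p = 0.0025, edgeR). In APPPS1_NLRP3_12m it was at 118.3, 125.3, 114.7 and 95 CPM and in NLRP3_12m at 85.4, 91.5, 73.1 and 78.8 CPM, without overlap (0.46 ± 0.09, adjusted p = 0.00038). At 6 months the differences were 0.31 ± 0.09 (adjusted p = 0.046) with Nlrp3 and 0.28 ± 0.09 (adjusted p = 0.029) without it. Both 6-month calls were lost on leaving out most single libraries, 8 and 7 of them, with adjusted p-values up to 0.28 and 0.14, whereas both 12-month calls held in each leave-out. Among libraries with second title number 1 or 2 alone the 12-month difference with Nlrp3 was 0.51 or 0.23 (adjusted p = 0.22, edgeR, with number 2). With number 1 WT_12m held only replicate 40, so no p-value is given there. Among 24 transgenic libraries from 6 months on, 15 were above 91.5 CPM, the highest of the 30 libraries without transgenes, and 4% of all tested genes had as many above. Sars, the seryl-tRNA synthetase, was also higher at 12 months, by 0.29 ± 0.10 with Nlrp3 (adjusted p = 0.037) and by 0.31 ± 0.10 without it (adjusted p = 0.042). Neither Sars call held under DESeq2 (adjusted p = 0.054 and 0.094), and each was lost on leaving out any 1 of 5 libraries. The synthetases Aars and Nars were not called with the transgenes, so the 4 synthetases of the list did not share 1 pattern of calls.

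Trib3 (ENSMUSG00000032715, chr2:152337422-152344032, - strand), a pseudokinase that feeds back on Atf4, rose from very low levels. At 12 months it was 1.78, 2.71, 1.06, 1.61 and 2.39 CPM in APPPS1_12m and 0.604, 0.586 and 0.478 CPM in WT_12m. The groups did not overlap (1.71 ± 0.56, adjusted p = 0.026, edgeR), but 5 of the 8 leave-outs ended the call (adjusted p up to 0.11), as did fitting the first number of the titles (1.63, adjusted p = 0.11). Without Nlrp3 it was 1.07, 0.505, 1.63 and 1.36 CPM in APPPS1_NLRP3_12m and 0.0609, 0, 0.0442 and 0.399 CPM in NLRP3_12m (2.84 ± 0.63, adjusted p = 0.0016), again without overlap. The call was kept in each leave-out, but the size rested on NLRP3_12m replicate 48, without which it was 4.34. Asns, by contrast, was not called in any of the 8 comparisons: APPPS1_12m lay between 0.265 and 6.29 CPM and WT_12m between 2.3 and 4.63 CPM (-0.21 ± 0.55, adjusted p = 0.84). Its spread within groups was large, and the standard error of 0.55 exceeds the differences seen for Gars, so a change of that size was not detectable in Asns.

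Slc7a5 (ENSMUSG00000040010, chr8:121881150-121907694, - strand), the light chain of the large neutral amino acid transporter, was lower. At 6 months it was 78.9, 82.5 and 64.1 CPM in APPPS1_6m and 108.6, 140.8, 124.6, 94.2 and 152.1 CPM in WT_6m, without overlap (-0.72 ± 0.18, adjusted p = 0.016, edgeR). This call was lost without APPPS1_6m replicate 24 or 22 (adjusted p up to 0.12). Without Nlrp3 it was 72.4, 51.9, 68.5, 62.8 and 43.8 CPM in APPPS1_NLRP3_6m and 78.3, 118.1, 99.5 and 83.4 CPM in NLRP3_6m, also without overlap (-0.64 ± 0.16, adjusted p = 0.0066). At 12 months with Nlrp3 the groups overlapped, APPPS1_12m lying between 33.8 and 88.1 CPM and WT_12m at 95.9, 72.6 and 105.9 CPM (-0.63 ± 0.18, adjusted p = 0.0087, and up to 0.06 without WT_12m replicate 34 or 40), and it was -0.50 when the first number of the titles was fitted too (adjusted p = 0.13). Its partner Slc3a2, the heavy chain of the same transporter, differed by -0.24, 0.16 and -0.15 in these 3 comparisons and was not called. Of 24 transgenic libraries from 6 months on, 10 were below the lowest library without transgenes (53.8 CPM). The share of all genes with as many below was not computed, so nothing is read from this count. It also pools tagged and untagged libraries. Without the 4 libraries set aside, Slc7a5 differed with the tag itself, by -0.73 ± 0.17 in WT (adjusted p = 0.039, edgeR) and by -0.72 ± 0.17 in APPPS1 (adjusted p = 0.012). The remaining targets, Ddit4, Chac1, Sesn2, Aars, Nars, Slc3a2, Slc7a11, Asns and Vldlr, were not called in any of the 8 transgene comparisons.

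**Figure D2:**
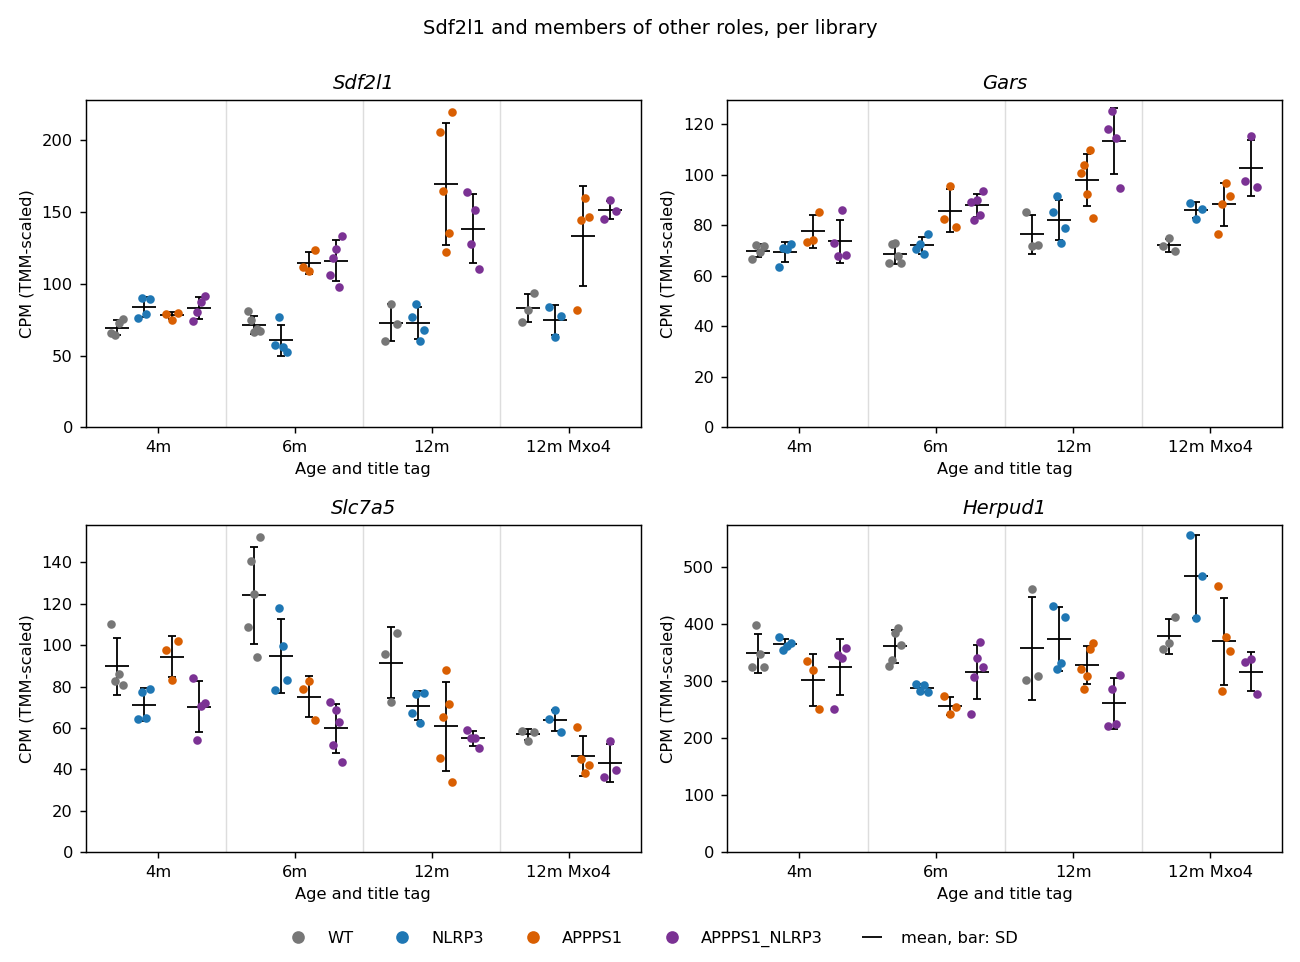
CPM of Sdf2l1, Gars, Slc7a5 and Herpud1 in each library (points) by age, tag and genotype, with the group mean and SD (bars). All transgenic libraries from 6 months on except APPPS1_12m_Mxo4 replicate 56 (81.8 CPM) lie above the highest library without transgenes (93.4 CPM) for Sdf2l1, while Slc7a5 is lower in both transgenic groups at 6 months.

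The chaperone list moved mostly upwards. In APPPS1_12m against WT_12m, 5 of its 11 members were higher and 0 lower, 10 had a positive difference, and the median was 0.31, against -0.07 over all genes. Without Nlrp3, 8 were higher and 0 lower at 6 months (median 0.41, all genes -0.04), and 4 were higher and 0 lower at 12 months (median 0.24, all genes -0.05). With Nlrp3 at 6 months 1 of 11 was higher (median 0.10, all genes -0.03). With the tag 1 of 11 was higher both with Nlrp3 (median 0.13) and without it (median 0.21). Over all genes, with Nlrp3 11.1% were higher and 6.96% lower at 12 months, 2.06% higher at 6 months and 3.44% higher with the tag. Without Nlrp3 6.16% were higher and 1.87% lower at 6 months, 5.53% higher and 3.17% lower at 12 months and 3.5% higher with the tag. Nothing is read from a count of 1. Scaling mattered at 6 months without Nlrp3: with RLE size factors in place of TMM, 4 members instead of 11 were called, Sdf2l1 (0.81), Calr (0.44) and Hsp90b1 (0.36) among the chaperones and the lower Slc7a5 (-0.75). The other 5 chaperones kept their sign at lower values, between 0.23 and 0.33. At 12 months RLE factors ended the calls of Pdia3 with Nlrp3 (adjusted p = 0.054, edgeR) and of Hsp90b1 without it (adjusted p = 0.086). The other chaperone calls at 12 months without the tag were kept.

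Sdf2l1 (ENSMUSG00000022769, chr16:17130138-17132383, - strand), a luminal partner of the Hspa5 folding cycle, had the largest rises among the chaperones and was called in 6 of the 8 transgene comparisons. With Nlrp3 at 6 months it was 111.5, 108.8 and 123.3 CPM in APPPS1_6m and 80.8, 74.6, 66.4, 68.3 and 66.8 CPM in WT_6m (0.67 ± 0.15, adjusted p = 0.0062, edgeR, and 0.057 without APPPS1_6m replicate 24). At 12 months it was 205.5, 164.6, 121.9, 135.2 and 219.1 CPM in APPPS1_12m and 60.3, 86.1 and 71.7 CPM in WT_12m (1.23 ± 0.16, adjusted p = 1.9e-07). Neither pair of groups overlapped. Without Nlrp3 it lay between 98 and 133.5 CPM in APPPS1_NLRP3_6m and between 52.3 and 76.5 CPM in NLRP3_6m (0.93 ± 0.15, adjusted p = 1.2e-05). At 12 months it lay between 110.2 and 163.7 CPM in APPPS1_NLRP3_12m and between 60 and 85.7 CPM in NLRP3_12m (0.94 ± 0.16, adjusted p = 3.1e-05). These pairs did not overlap either. With the tag it was 145.2, 157.9 and 150.8 CPM in APPPS1_NLRP3_12m_Mxo4 and 84, 63.1 and 77.2 CPM in NLRP3_12m_Mxo4 (1.0 ± 0.18, adjusted p = 9.8e-05).

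The exception for Sdf2l1 was the tagged APPPS1 group, at 81.8, 144.5, 159.3 and 146.6 CPM against 73.6, 81.9 and 93.4 CPM in WT_12m_Mxo4. The low value is replicate 56. The difference was 0.69 ± 0.17 (adjusted p = 0.0063, edgeR) and 0.89 without that library (adjusted p = 2e-05), while leaving out WT_12m_Mxo4 replicate 60 or APPPS1_12m_Mxo4 replicate 58 ended the call at 0.59 (adjusted p = 0.078 and 0.058). In all, 23 of 24 transgenic libraries from 6 months on were above the highest of 30 libraries without transgenes, and 0.81% of all tested genes had as many above. At 4 months the groups with transgenes, 75 to 79.3 CPM in APPPS1_4m and 74.4 to 91.1 CPM in APPPS1_NLRP3_4m, lay in the range of the groups without them.

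Titles carry a second number with 2 values, each in 31 libraries, and the labels say that libraries were made in 2 batches without tying the number to them. Within the first value the Sdf2l1 differences with Nlrp3 were 0.71 at 6m, 0.98 at 12m and 0.80 with the tag (adjusted p = 0.0028, edgeR, with the tag). Without Nlrp3 they were 0.62 and 0.91 at 6m and 12m (adjusted p = 0.063 and 0.0014). Within the second value they were 0.63, 1.54 and 0.15 with Nlrp3 (adjusted p = 0.0089 and 1.3e-07 at 6m and 12m). Without Nlrp3 they were 1.16, 0.95 and 0.94 (adjusted p = 1.5e-05 and 9.3e-05 at 6m and with the tag). No p-value is given where a group held only 1 usable library. For 0.71 this was APPPS1_6m replicate 22, for 0.98 WT_12m replicate 40 and for 0.95 NLRP3_12m replicate 42. The value 0.15 compares only APPPS1_12m_Mxo4 replicate 56 with WT_12m_Mxo4 replicate 60. The sign was positive in each of these 11 values. Titles also carry a first number with 8 values; with it as a further term the difference at 6 months with Nlrp3 was 0.62 (adjusted p = 0.091) and that at 12 months 1.16 (adjusted p = 1.6e-05).

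Calr (ENSMUSG00000003814, chr8:84841850-84846934, - strand) and Canx (ENSMUSG00000020368, chr11:50293961-50325673, - strand) hold newly made glycoproteins until they are folded. Calr was 837.8, 994.6, 1013.5, 970.7 and 1049.3 CPM in APPPS1_NLRP3_6m and 638.0, 753.1, 650.9 and 602.7 CPM in NLRP3_6m, without overlap (0.55 ± 0.11, adjusted p = 0.00021, edgeR). At 12 months it was 1159.2, 1077.4, 1016.9 and 993.3 CPM in APPPS1_NLRP3_12m and 831.6, 836.7, 745.0 and 788.6 CPM in NLRP3_12m, without overlap (0.40 ± 0.11, adjusted p = 0.013). With Nlrp3 at 12 months it was 1192.6, 1188.8, 1071.5, 1057.4 and 924.8 CPM in APPPS1_12m and 846.8, 893.0 and 851.8 CPM in WT_12m (0.34 ± 0.12, adjusted p = 0.033). All 3 pairs of groups were thus fully parted. The last call was lost on leaving out any 1 of 5 libraries (adjusted p up to 0.11), and the second without APPPS1_NLRP3_12m replicate 43 (adjusted p = 0.056). Canx was 1146.0, 979.0, 895.1, 1053.7 and 1612.3 CPM in APPPS1_12m and 878.5, 747.1 and 864.8 CPM in WT_12m (0.47 ± 0.13, adjusted p = 0.0073). The highest value is replicate 41, without which the difference was 0.30 (adjusted p = 0.097), and without WT_12m replicate 39 it was 0.39 (adjusted p = 0.075). In the fit without the 4 libraries set aside, replicate 41 among them, both 12-month calls with Nlrp3 were kept. Canx was then at 0.35 ± 0.09 (adjusted p = 0.0021, edgeR) and Calr at 0.42 ± 0.08 (adjusted p = 3.4e-05). That set was chosen after the data were seen. In APPPS1_NLRP3_6m Canx was higher by 0.44 ± 0.12 than in NLRP3_6m (adjusted p = 0.012, and up to 0.07 over 4 leave-outs that ended the call). Of the 24 transgenic libraries from 6 months on, 20 were above the highest library without transgenes for Canx (917.5 CPM) and 17 for Calr (978.9 CPM), counts that 1.88% and 3.1% of all tested genes reached.

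Hsp90b1 (GRP94) and the disulphide isomerase Pdia3 followed the same course. Hsp90b1 (ENSMUSG00000020048, chr10:86690209-86705509, - strand) was 1293.7, 1558.7, 1529.9, 1303.5 and 1645.7 CPM in APPPS1_NLRP3_6m and 1095.1, 1095.5, 890.1 and 1044.0 CPM in NLRP3_6m, without overlap (0.48 ± 0.11, adjusted p = 0.0028, edgeR). It was higher at 12 months by 0.43 ± 0.12 with Nlrp3 (adjusted p = 0.0097) and by 0.35 ± 0.12 without it (adjusted p = 0.048, lost in 6 of 8 leave-outs). Other annotated genes overlap 15.7% of its exon bases. Pdia3 was higher by 0.34 ± 0.10 without Nlrp3 at 6 months (adjusted p = 0.019), by 0.37 ± 0.10 at 12 months (adjusted p = 0.015), and with Nlrp3 at 12 months by 0.32 ± 0.11 (adjusted p = 0.031). Without APPPS1_12m replicate 41, which had 2150.6 CPM of Pdia3 where the other 4 libraries had 1314.4 to 1445.6 CPM, the last difference was 0.17 (adjusted p = 0.29), and that of Hsp90b1 was 0.33 (adjusted p = 0.069). Leaving out WT_12m replicate 39 ended both calls too, at 0.32 (adjusted p = 0.082) and 0.31 (adjusted p = 0.12), and that of Pdia3 was also lost without WT_12m replicate 34 (adjusted p = 0.099) or 40 (adjusted p = 0.066). The fit without the 4 libraries set aside, which also drops replicate 41, kept both calls. Hsp90b1 was then at 0.37 ± 0.07 (adjusted p = 0.00013, edgeR) and Pdia3 at 0.21 ± 0.07 (adjusted p = 0.028). Without Nlrp3 the Pdia3 call was lost in 6 of 9 leave-outs at 6 months (adjusted p up to 0.1) and at 12 months without NLRP3_12m replicate 47 (adjusted p = 0.057) or APPPS1_NLRP3_12m replicate 46 (adjusted p = 0.053). When the first number of the titles was fitted too, the 12-month differences with Nlrp3 kept their sign but lost the call for Calr (0.32, adjusted p = 0.12), Canx (0.43, adjusted p = 0.054), Hsp90b1 (0.39, adjusted p = 0.056) and Pdia3 (0.30, adjusted p = 0.11). Among libraries with second title number 1 these differences were 0.18 for Canx, 0.20 for Hsp90b1, 0.20 for Pdia3 and 0.38 for Calr. WT_12m held only replicate 40 there, so no p-value is given. With number 2, which includes APPPS1_12m replicate 41, those of Canx, Hsp90b1 and Pdia3 were 0.77, 0.63 and 0.46 (adjusted p = 0.00039, 0.00037 and 0.02, edgeR). Calr was at 0.29 with number 2 (adjusted p = 0.063). Whether the 2 sets differ was not tested.

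Hspa5 (ENSMUSG00000026864, chr2:34771970-34777547, + strand), the central chaperone and the standard readout of the unfolded protein response, was called with the transgenes only at 6 months without Nlrp3. It was 1623.6, 1912.2, 2318.0, 1614.7 and 1713.3 CPM in APPPS1_NLRP3_6m and 1393.1, 1293.2, 1287.5 and 1321.0 CPM in NLRP3_6m (0.44 ± 0.12, adjusted p = 0.014, edgeR). The groups did not overlap, and without NLRP3_6m replicate 33 the adjusted p was 0.086. At 12 months it differed by 0.21 ± 0.13 with Nlrp3 (adjusted p = 0.29) and by 0.04 ± 0.13 without it (adjusted p = 0.92). In the same 6-month comparison the disulphide isomerase Pdia6 was higher by 0.35 ± 0.09 (adjusted p = 0.0089) and Creld2, a luminal protein induced in endoplasmic reticulum stress, by 0.41 ± 0.11 (adjusted p = 0.011). Both lost the call without NLRP3_6m replicate 32 or 33, Creld2 also without replicate 26. Pdia4, Dnajb9 and Manf were not called in any of the 8 transgene comparisons, Manf coming closest at 0.35 (adjusted p = 0.05) at 6 months without Nlrp3.

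NLRP3_6m, the control of that comparison, was itself low in many members. Against WT_6m, edgeR called 0 of 34 members (0.443% of all genes called, 0.186% higher and 0.257% lower, 0 by DESeq2), while 14 had an unadjusted p under 0.05. Of the 11 chaperones 10 had a negative difference, with a median of -0.19. Without the 4 libraries set aside, 3 were called lower there: Calr (-0.27 ± 0.07, adjusted p = 0.029), Xbp1 (-0.27 ± 0.07, adjusted p = 0.031) and Atf4 (-0.42 ± 0.11, adjusted p = 0.045), with 0.763% of all genes called. The difference between the 6-month transgene effects without and with Nlrp3 was 0.69 ± 0.18 for Hspa5 (adjusted p = 0.18) and 0.48 ± 0.15 for Calr (adjusted p = 0.38). Over the members 0 were called in that test (0.0151% of all genes, 12 with an unadjusted p under 0.05, 1 by DESeq2). The larger number of chaperone calls without Nlrp3 at 6 months is therefore not shown to differ from that with Nlrp3. Endothelial and pericyte markers moved in the same comparison of APPPS1_NLRP3_6m with NLRP3_6m, 4 of 8 being lower, against 1.87% of all genes. Their summed levels lay between 237.3 and 692.0 CPM in APPPS1_NLRP3_6m and between 656.2 and 1264.8 CPM in NLRP3_6m, with 0 of the 8 at 0. Choroid plexus markers summed to 339.7 to 4988.7 CPM (median 1199.9) in APPPS1_NLRP3_6m and 1762.2 to 5208.0 CPM (median 3163.2) in NLRP3_6m, with overlap. The part of either list in the result was not tested.

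**Figure D3:**
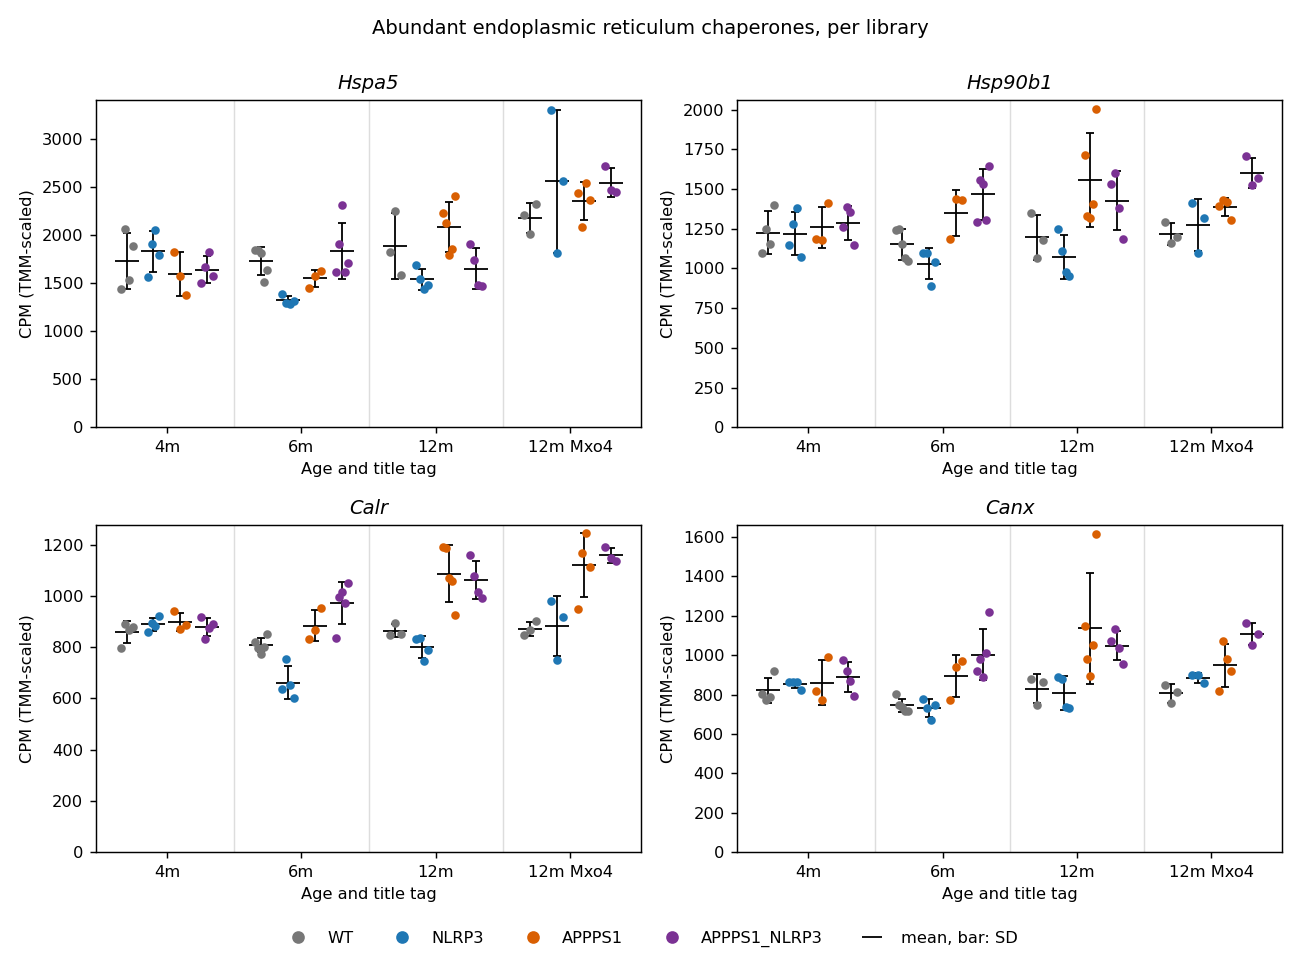
CPM of Hspa5, Hsp90b1, Calr and Canx in each library (points) by age, tag and genotype, with the group mean and SD (bars). Calr is fully parted between APPPS1_NLRP3 and NLRP3 at 6 and 12 months, and the highest Canx value, 1612.3 CPM, is APPPS1_12m replicate 41.

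The tagged set gave fewer chaperone calls, and this depended on the libraries kept. Replicate 56, the 1 library of these groups among the 4 set aside, was set aside after its low Psat1 was seen, and Sdf2l1 was low in it as well. Values without it are therefore conditioned on the response they describe and are no independent support. With all libraries Calr differed by 0.36 ± 0.12 in APPPS1_12m_Mxo4 against WT_12m_Mxo4 (adjusted p = 0.065, edgeR) and by 0.39 ± 0.13 without Nlrp3 (adjusted p = 0.063). Without the 4 libraries set aside, 5 members were higher and 1 lower with Nlrp3 (14.9% of all genes called): Sdf2l1, Calr (0.46 ± 0.08, adjusted p = 2.2e-05), Gars (0.40 ± 0.09, adjusted p = 6e-04), Canx (0.35 ± 0.09, adjusted p = 0.0045) and Hsp90b1 (0.28 ± 0.08, adjusted p = 0.0086) were higher. Vldlr, a lipoprotein receptor and Atf4 target, was lower (-3.69 ± 0.91, adjusted p = 0.0029), at 0.657, 0.0553 and 0 CPM against 1.43, 2.07 and 3.94 CPM, so that this size rests on very few counts. Without Nlrp3, 6 were higher and 2 lower in that fit (8.04% of all genes called), with Calr at 0.41 ± 0.08 (adjusted p = 0.00022), Canx at 0.32 ± 0.09 (adjusted p = 0.018), Hsp90b1 at 0.29 ± 0.08 (adjusted p = 0.01), Pdia3 at 0.28 ± 0.07 (adjusted p = 0.011) and Trib3 at 1.89 ± 0.62 (adjusted p = 0.047). All calls with the full set of libraries were kept there as well.

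The degradation genes went apart. Herpud1 (ENSMUSG00000031770, chr8:94386438-94395377, + strand), which gathers the machinery that retrieves misfolded proteins, was lower in 3 comparisons. It was 273.7, 241.4 and 254.6 CPM in APPPS1_6m and 326.3, 336.0, 384.6, 392.3 and 362.8 CPM in WT_6m (-0.51 ± 0.14, adjusted p = 0.034, edgeR). Without Nlrp3 at 12 months it was 221.7, 285.4, 224.9 and 310.6 CPM in APPPS1_NLRP3_12m and 431.4, 320.3, 330.6 and 411.7 CPM in NLRP3_12m (-0.54 ± 0.14, adjusted p = 0.0079). With the tag it was 332.8, 338.7 and 277.1 CPM in APPPS1_NLRP3_12m_Mxo4 and 555.3, 410.2 and 484.6 CPM in NLRP3_12m_Mxo4 (-0.63 ± 0.16, adjusted p = 0.0091). None of these 3 pairs overlapped. The calls were lost in 5 of 9 leave-outs at 6 months (adjusted p up to 0.16), without APPPS1_NLRP3_12m replicate 43 at 12 months (adjusted p = 0.053), and without APPPS1_NLRP3_12m_Mxo4 replicate 54 or NLRP3_12m_Mxo4 replicate 50 with the tag (adjusted p up to 0.097). However, at 12 months with Nlrp3 the difference was not called, the groups spanning 286.7 to 366.6 CPM in APPPS1_12m and 301.2 to 461.7 CPM in WT_12m. Edem1, a lectin that sends glycoproteins to degradation, was higher without Nlrp3 at 6 months (0.37 ± 0.11, adjusted p = 0.018, lost in 4 of 9 leave-outs, with 0.24 without APPPS1_NLRP3_6m replicate 30) and not called in the other transgene comparisons.

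Atf4-type targets and chaperones were then set side by side. The level of a list was taken per library as the mean of its members' log2(CPM + 0.5), each centred over the libraries. The chaperone level was -0.04 ± 0.03 (SD, n = 3) in WT_12m and 0.27 ± 0.21 (SD, n = 5) in APPPS1_12m. The level of the Atf4-type targets was 0.10 ± 0.05 and 0.02 ± 0.11 in the same groups. The level of the Atf4-type targets minus that of the chaperones was 0.14 ± 0.03 in WT_12m and -0.25 ± 0.30 in APPPS1_12m, 0.41 ± 0.09 in NLRP3_6m and -0.13 ± 0.22 in APPPS1_NLRP3_6m, and 0.19 ± 0.18 in WT_6m and 0.04 ± 0.39 in APPPS1_6m. With the tag it was 0.00 ± 0.06 in WT_12m_Mxo4 and -0.30 ± 0.15 in APPPS1_12m_Mxo4, and -0.17 ± 0.15 in NLRP3_12m_Mxo4 and -0.47 ± 0.17 in APPPS1_NLRP3_12m_Mxo4. At 12 months without Nlrp3 it was 0.10 ± 0.34 in NLRP3_12m and -0.06 ± 0.14 in APPPS1_NLRP3_12m, a difference within the spread. At 4 months it was higher in the transgenic groups, 0.24 ± 0.13 in APPPS1_4m against 0.14 ± 0.16 in WT_4m and 0.12 ± 0.14 in APPPS1_NLRP3_4m against -0.01 ± 0.18 in NLRP3_4m. The mean was thus lower with the transgenes in the 6 pairs from 6 months on and higher in both pairs at 4 months, and the 3 libraries of APPPS1_6m spanned -0.36 to 0.42. For the same difference between lists, the shallow APPPS1_12m replicate 41 was at -0.70 and the others of its group between -0.36 and 0.06. NLRP3_12m replicate 45, also shallow, was at -0.29 and the others of its group between -0.08 and 0.45. Some Atf4-type targets, such as Stc2 and Chac1, lie near 0 CPM, where the added 0.5 damps their changes. These levels are given without a test.

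**Figure D4:**
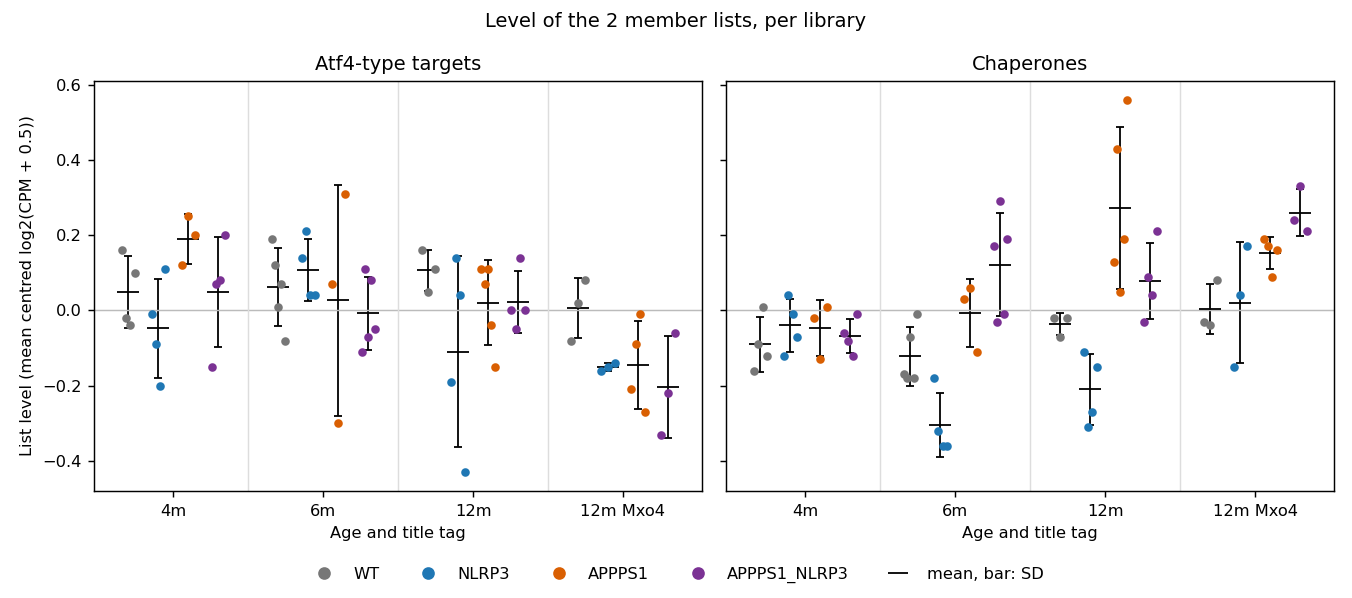
Level of the Atf4-type targets (left) and chaperones (right) in each library, as the mean of centred log2(CPM + 0.5) values, by age, tag and genotype, with the group mean and SD. Chaperone levels reach 0.56 in the shallow APPPS1_12m replicate 41 (0.05 to 0.43 in the others of its group) and lie between -0.36 and -0.18 in NLRP3_6m. The Atf4-type targets show no such step, but their list holds genes near 0 CPM, such as Stc2 and Chac1, whose changes the added 0.5 damps.

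Within groups, chaperones also varied together more than the targets did. Over the deviations of 61 libraries from their group means, the median Pearson r was 0.43 over 55 pairs of chaperones, 0.05 over 91 pairs of Atf4-type targets and -0.02 over 154 pairs between the lists. All pairs share the same libraries and depths, and low counts of several targets limit their correlations.

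The next question was what the loss of Nlrp3 changes. Without transgenes, NLRP3 against WT gave 0 member calls with edgeR at 4 months (0.378% of all genes called), 12 months (1.47%) and with the tag (0.0956%, of which 0.0554% higher and 0.0403% lower), besides the 6 months given above. At these points 0, 11 and 4 members had an unadjusted p under 0.05 and DESeq2 called 0, 2 and 0. Between APPPS1_NLRP3 and APPPS1, 0 were called at 4 months (0.206% of all genes, 2 unadjusted, 0 by DESeq2), 6 months (0.488%, 6 and 0) and with the tag (0.287%, 3 and 0). At 12 months 4 were lower and 0 higher (5.71% of all genes called, 3.3% lower and 2.41% higher).

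Of these 4, Atf3 (ENSMUSG00000026628, chr1:191170296-191218039, - strand), a stress-induced factor downstream of Atf4, was 1327.4, 1091.3, 1030.9 and 1041.0 CPM in APPPS1_NLRP3_12m and 2351.1, 2684.6, 1776.5, 2202.6 and 2730.9 CPM in APPPS1_12m. The groups did not overlap, as in 4.25% of all genes (-1.08 ± 0.25, adjusted p = 0.0081, edgeR). Xbp1 (ENSMUSG00000020484, chr11:5520659-5525893, + strand) was 296.5, 300.5, 265.3 and 315.0 CPM against 403.5, 342.8, 354.9, 354.9 and 395.7 CPM, also without overlap (-0.34 ± 0.08, adjusted p = 0.011). Pdia6 differed by -0.38 ± 0.09 (adjusted p = 0.012), with overlap. Atf4 (ENSMUSG00000042406, chr15:80255184-80257541, + strand) was 233.6, 178.6, 176.5 and 173.2 CPM against 245.2, 235.4, 201.7, 222.6 and 353.6 CPM (-0.41 ± 0.12, adjusted p = 0.037), and without APPPS1_12m replicate 41 it differed by -0.25 (adjusted p = 0.24). Leaving out that library, APPPS1_NLRP3_12m replicate 44 or APPPS1_NLRP3_12m replicate 49 ended the Pdia6 call (adjusted p up to 0.078), and those 2, APPPS1_NLRP3_12m replicate 46 and APPPS1_12m replicate 35 also ended that of Atf4.

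Here all APPPS1_NLRP3_12m libraries were male and all APPPS1_12m libraries female. With sex as a further term, which other groups of mixed sex allow, the differences were -1.25 for Atf3 (adjusted p = 0.019, edgeR), -0.43 for Xbp1 (adjusted p = 0.0051), -0.48 for Pdia6 (adjusted p = 0.0072) and -0.37 for Atf4 (adjusted p = 0.21). Immediate-early genes moved the same way, 4 of 20 being lower (median -0.57), with summed levels between 9248.0 and 12659.7 CPM in APPPS1_NLRP3_12m and between 15453.7 and 22094.7 CPM in APPPS1_12m. Endothelial and pericyte markers were also lower, 6 of 8, with summed levels between 105.8 and 224.0 CPM and between 309.9 and 477.1 CPM. Their part in the result was not tested. Sdf2l1, Calr and Canx were not among the calls. The 12-month transgene effects with and without Nlrp3, tested against each other, gave 0 member calls (0% of all genes, 1 member with an unadjusted p under 0.05, 0 by DESeq2), and the same test with the tag gave 0 (0%, 3 and 0).

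**Figure D5:**
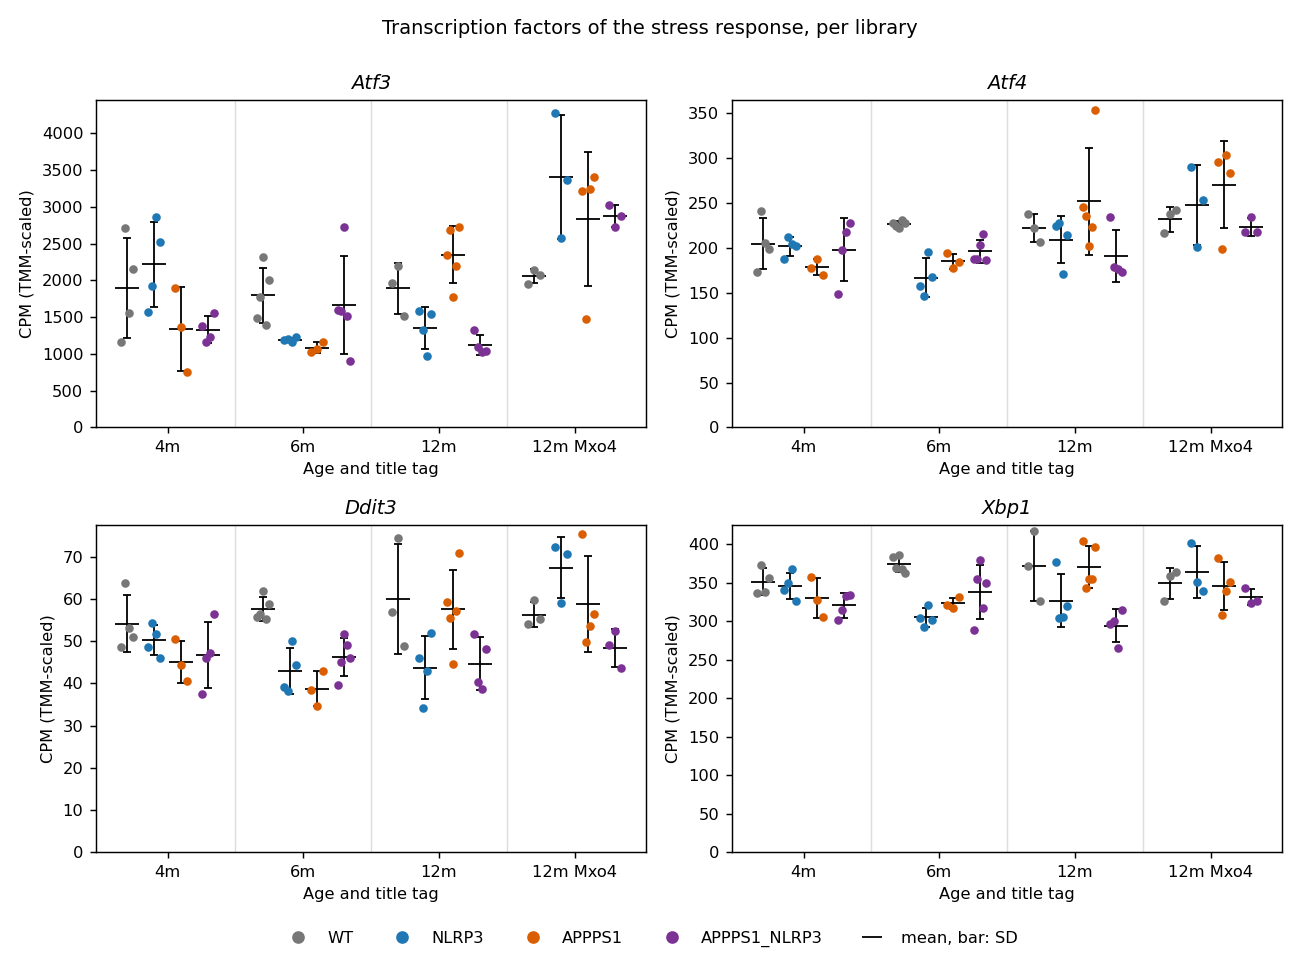
CPM of Atf3, Atf4, Ddit3 and Xbp1 in each library (points) by age, tag and genotype, with the group mean and SD (bars). Atf3 lies between 1030.9 and 1327.4 CPM in APPPS1_NLRP3_12m and between 2580.6 and 4275.3 CPM in NLRP3_12m_Mxo4, and the highest Atf4 value, 353.6 CPM, is APPPS1_12m replicate 41.

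Age was compared within genotype, 12 months against 4 months. WT gave 0 member calls with edgeR (0.0252% of all genes, 1 with an unadjusted p under 0.05, 0 by DESeq2) and NLRP3 gave 0 (0.418%, 7 and 0). APPPS1 gave 8 higher and 2 lower (22.3% of all genes called, 13% higher and 9.32% lower), and APPPS1_NLRP3 gave 3 higher and 1 lower (12.1%, 7.25% higher and 4.84% lower). These comparisons share their 12-month libraries with the transgene comparisons above. Sdf2l1 was higher by 1.11 ± 0.16 in APPPS1 (adjusted p = 1.1e-06) and by 0.73 ± 0.15 in APPPS1_NLRP3 (adjusted p = 0.00053), and Gars by 0.34 ± 0.09 (adjusted p = 0.0054) and 0.62 ± 0.09 (adjusted p = 2.7e-06). The age difference of Sdf2l1 was larger in APPPS1 than in WT by 1.05 ± 0.23 (adjusted p = 0.0037), which was the 1 member called in that test (4.92% of all genes called), though adding the first title number to the model gave 0.97 (adjusted p = 0.058). Aars, the alanyl-tRNA synthetase, was lower in APPPS1_12m (113.0, 110.5, 116.2, 119.3 and 66.4 CPM) than in APPPS1_4m (133.5, 138.6 and 154.0 CPM), without overlap (-0.43 ± 0.11, adjusted p = 0.0039), where 18.7% of all genes had none. The lowest value is replicate 41, and without the 4 libraries set aside the difference was -0.28 (adjusted p = 0.023). Within second title number 1 it was -0.22 (adjusted p = 0.39). Within number 2 it was -0.75, with only replicate 6 in APPPS1_4m, so no p-value is given there. Aars was thus called lower with age in APPPS1 and Gars higher. The stress-induced Sesn2 was lower with age in APPPS1_NLRP3 alone by call (-0.66 ± 0.20, adjusted p = 0.024), with 3 leave-outs ending the call, and in the fit with sex its adjusted p was 0.12. All 4-month libraries were female and all APPPS1_NLRP3_12m libraries male.

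The tag was compared with untagged 12-month libraries of the same genotype. NLRP3 gave 4 higher and 0 lower (6.62% of all genes called, 2.06% higher and 4.56% lower), all of them sensors, stress factors or Hspa5. Atf3 was 4275.3, 2580.6 and 3365.2 CPM in NLRP3_12m_Mxo4 and 1581.7, 1324.0, 968.0 and 1537.4 CPM in NLRP3_12m (1.26 ± 0.28, adjusted p = 0.0066, edgeR). Hspa5 was 3301.4, 1814.1 and 2570.8 CPM against 1696.5, 1542.6, 1441.5 and 1483.7 CPM (0.62 ± 0.14, adjusted p = 0.0074). Both pairs were without overlap, as were 13.5% of all genes. Eif2ak3 differed by 0.66 ± 0.17 (adjusted p = 0.017), one of its controls, replicate 45, being at 8.72 CPM, and Ddit3 by 0.54 ± 0.14 (adjusted p = 0.014). Without NLRP3_12m_Mxo4 replicate 50, the highest in Atf3 and Hspa5, 0 members were called there. In APPPS1_NLRP3 1 member was higher (0.916% of all genes called, 0.478% higher), Atf3 with 3032.9, 2727.9 and 2872.1 CPM against 1327.4, 1091.3, 1030.9 and 1041.0 CPM (1.28 ± 0.28, adjusted p = 0.017, and up to 0.087 over 4 leave-outs that ended the call). WT gave 0 (0.166%, 1 with an unadjusted p under 0.05, 1 by DESeq2) and APPPS1 gave 0 (6.38%, 5 and 1).

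Immediate-early genes were higher with the tag in the same comparisons, 12 of 20 in NLRP3 (median 0.92) and 12 of 20 in APPPS1_NLRP3 (median 1.07), against 2.06% and 0.478% of all genes. Their summed level was 33599.7 to 43193.9 CPM in NLRP3_12m_Mxo4 and 12787.1 to 16857.5 CPM in NLRP3_12m. This was not particular to the knockouts. In WT the sum was 24395.7 to 30375.5 CPM with the tag and 16699.1 to 19441.2 CPM without it. In APPPS1 the ranges overlapped, with medians of 31635.6 and 17265.8 CPM. Neuronal markers were lower, 7 of 10 in NLRP3 (summed level 11.8 to 27.2 CPM with the tag and 85 to 585.4 CPM without it), against 4.56% of all genes. Their sum was also lower with the tag in WT (15.8 to 29.1 against 31.8 to 201.0 CPM) and APPPS1_NLRP3 (4.24 to 26.4 against 64.2 to 371.5 CPM). In APPPS1 it overlapped. The part of either in the Atf3 and Hspa5 differences was not tested. In the tagged knockout groups mean Hspa5 was 2550.1 CPM with the transgenes and 2562.1 CPM without them, and mean Sdf2l1 was 151.3 and 74.8 CPM.

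Other genes of these pathways, outside the 35, were counted from lists whose members were also chosen with earlier results known. In these counts, the shares of all genes called were 11.1% higher and 6.96% lower in APPPS1_12m against WT_12m, 6.16% and 1.87% in APPPS1_NLRP3_6m against NLRP3_6m, and 5.53% and 3.17% in APPPS1_NLRP3_12m against NLRP3_12m. Of 24 further folding and degradation genes of the endoplasmic reticulum, 7 were higher and 0 lower in APPPS1_12m against WT_12m (median 0.25), and without Nlrp3 8 were higher and 0 lower at 6 months (median 0.21) and 6 and 0 at 12 months (median 0.24). Ero1l, the oxidase that drives disulphide formation, was higher by 0.89 ± 0.14 in APPPS1_12m (adjusted p = 3.4e-06, edgeR) and by 0.77 ± 0.14 in APPPS1_NLRP3_12m (adjusted p = 8.2e-05). Os9, a lectin of the degradation pathway, was higher by 0.58 ± 0.16 (adjusted p = 0.0051) and 0.68 ± 0.15 (adjusted p = 0.0015), and Sil1, the nucleotide exchange factor of Hspa5, by 0.72 ± 0.18 (adjusted p = 0.0021) and 0.58 ± 0.17 (adjusted p = 0.024). With Nlrp3 at 6 months 1 of the 24 was higher, and with the tag 0 (with Nlrp3) and 2 (without), where 2.06%, 3.44% and 3.5% of all genes were higher.

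The counts of this paragraph stand against 11.1% of all genes higher and 6.96% lower in APPPS1_12m, and 5.53% and 3.17% in APPPS1_NLRP3_12m. Nothing is read from lists with only 1 or 2 genes called. Of 18 further genes of the amino acid response, 4 were higher and 0 lower in APPPS1_12m and 2 and 0 in APPPS1_NLRP3_12m. Psat1 stood out, at 171.9 to 324.1 CPM in APPPS1_12m and 29.8 to 34 CPM in WT_12m (2.93 ± 0.35, adjusted p = 4.8e-08, edgeR). The median of these 18 was 0.06 and 0.02 in the 2 comparisons, far below the value of Psat1. Of 14 further tRNA synthetases, 4 were higher and 0 lower in APPPS1_12m, with Eprs at 0.43 ± 0.10 (adjusted p = 0.00075), and 2 and 0 in APPPS1_NLRP3_12m, with Eprs at 0.35 ± 0.09 (adjusted p = 0.011). Of 11 kinases, phosphatase subunits and initiation factors around eIF2alpha, 2 were higher in APPPS1_12m, Eif2s1 (0.38 ± 0.10, adjusted p = 0.0065), the alpha subunit itself, and Eif2ak2 (0.59 ± 0.19, adjusted p = 0.02), the interferon-inducible kinase PKR. In APPPS1_NLRP3_12m Eif2ak2 was higher by 1.03 ± 0.18 (adjusted p = 7.7e-05). Of 12 cytosolic and mitochondrial heat shock genes 1 was lower in APPPS1_12m, Dnajb1 (-0.61 ± 0.21, adjusted p = 0.036), and the median of the list was -0.43.

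Markers of other cells were checked beside the 12-month rises. Over all genes, 11.1% were higher and 6.96% lower in APPPS1_12m against WT_12m, and 5.53% and 3.17% in APPPS1_NLRP3_12m against NLRP3_12m. Plasma cells, which make much endoplasmic reticulum, were followed with B cells: of 7 tested markers 1 was higher and 1 lower in APPPS1_12m, and the sum over 10 markers lay between 465.5 and 608.9 CPM there and between 375.6 and 445.8 CPM in WT_12m, with 0 of the 10 at 0. In APPPS1_NLRP3_12m 0 of 7 were called, with 398.3 to 539.9 CPM against 329.0 to 458.1 CPM in NLRP3_12m and 2 of the 10 at 0 in APPPS1_NLRP3_12m. Of 7 monocyte markers 3 were called higher in APPPS1_12m, but their summed level had a median of 53.8 CPM there and 59.3 CPM in WT_12m. APPPS1_12m replicate 38 alone was high, at 330.7 CPM of monocyte and 2757.4 CPM of neutrophil markers (group median 81.4 CPM). Their part in the results was not tested.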

How the data were processed

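RNA-seq of CD11b+ cells was deposited by the authors as raw counts per gene for 62 libraries in 16 groups. Per the submitters' processing notes the tools were Trimmomatic, TopHat and HTSeq with build mm10, and versions and strand setting are not given in the sources used here. Identifiers were matched to symbols with GENCODE vM21.

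Counts were fitted with edgeR 4.0.16 (R 4.3.3, limma 3.58.1) on TMM size factors, with group and the second title number as terms, over the 19865 genes that passed filterByExpr (minimum count 10, minimum total 15). The quasi-likelihood test was two-sided, with p-values adjusted by Benjamini-Hochberg and calls below 0.05, in 28 comparisons. All 62 libraries entered 1 fit. Levels are TMM-scaled CPM from the deposited counts, for libraries of at least 100000 counts. Alternatives were DESeq2 1.42.0, RLE size factors, no count filter, other terms (sex, first title number, no second title number), subsets by the second title number, and leaving out each library. The leave-out fits kept the tested genes and the trended dispersion (spread of counts by level) of the fit to all libraries. A left-out library thus still shaped both. Sex was read from Xist (at least 100 CPM in females) and 4 Y-linked genes (at least 50 CPM in males). The fits were tested on simulated data.

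The members and lists were chosen with earlier results of these data known. Values by library are given for called members with the largest differences, up to 6 per comparison, and for Atf4, Ddit3, Xbp1, Hspa5 and Asns. Up to 4 genes per further list are named by smallest adjusted p. Promoter windows come from RefSeq (GRCm38.p6).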

Additional observations from a re-analysis of the deposited data

Results flagged for a closer look

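In the 10 groups of 4 or 5 usable libraries, 23 of 350 pairs of a member and a group had 1 library set far apart from the rest, where chance sets apart about 1 in 20. APPPS1_12m replicate 41, the third shallowest library, was apart in 3 members: Atf4 was 353.6 CPM in it (201.7 to 245.2 in the others), Pdia3 2150.6 CPM (1314.4 to 1445.6) and Aars 66.4 CPM (110.5 to 119.3). In APPPS1_12m replicate 35 Nars was 196.3 CPM (172.6 to 174.8), and Stc2 was 0.285 CPM (0 in the others). In NLRP3_12m replicate 45, the second shallowest library, Ern1 was 45.8 CPM (26.8 to 28.4), and in replicate 48 of that group Trib3 was 0.399 CPM (0 to 0.0609). Atf4 was 233.6 CPM in APPPS1_NLRP3_12m replicate 43 (173.2 to 178.6), and Pdia4 was 223.6 CPM in replicate 49 (290.3 to 301.0).

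In the tagged APPPS1 group Atf3 was 1480.7 CPM in replicate 57 (3216.3 to 3412.5 in the others) and Edem1 547.4 CPM in replicate 58 (519.2 to 523.0). Among 6-month libraries, APPPS1_NLRP3_6m replicate 25 had 18.3 CPM of Ddit4 (0.856 to 4.36). Replicate 30 of that group had 0.972 CPM of Chac1 (0.0428 to 0.257) and 635.0 CPM of Edem1 (430.8 to 482.6). In NLRP3_6m, Eif2ak3 was 35.8 CPM in replicate 27 (42.2 to 42.8) and Sars 59.2 CPM in replicate 26 (61.6 to 62). At 4 months Slc7a11 was 11 CPM in NLRP3_4m replicate 8 (7.95 to 8.29), Canx 820.9 CPM in NLRP3_4m replicate 15 (861.6 to 865.9) and Herpud1 251.2 CPM in APPPS1_NLRP3_4m replicate 9 (340.6 to 357.7). The remaining 4-month cases rest on single libraries with counts above 0, at 0.062 CPM of Chac1 in WT_4m replicate 1 and 0.132, 0.0538 and 0.174 CPM of Stc2 in WT_4m replicate 4, NLRP3_4m replicate 10 and APPPS1_NLRP3_4m replicate 13.

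A difference between groups was found for Sdf2l1, whose change from 4 to 12 months was larger in APPPS1 than in WT by 1.05 ± 0.23 (edgeR's quasi-likelihood test, adjusted p = 0.0037).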

How the results depend on the processing

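Of 62 member calls over the 28 comparisons, 19 were kept when each library was left out in turn. Under each other alternative 7 were kept, and 6 were kept under both. Those other alternatives include the subsets by second title number, where some groups, such as WT_12m, held only 1 usable library. A call lost in such a subset says little about that call. The same limit holds for the counts within second title numbers given below. No share over all genes is given beside the counts of 7 and 6. These 6 are Sdf2l1 in APPPS1_12m against WT_12m, in APPPS1_NLRP3_12m against NLRP3_12m, in the tagged pair without Nlrp3 and in both age comparisons of transgenic groups, and Gars with age in APPPS1_NLRP3. The sign of 1 call was reversed: Creld2 in APPPS1_NLRP3_6m against NLRP3_6m was -0.04 among libraries with second title number 1. No paired analysis was possible because no replicate number, the third of the title, is shared by different libraries. The second title number was a term of the main fit, and the first was fitted only in an alternative run. The alternative without the 3 shallowest libraries and replicate 56 was chosen after seeing the data. Where counts moved, the cause was not tested, apart from the fewer samples in subsets.

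Members called, APPPS1_6m against WT_6m (5): 0 with the first title number, 0 and 3 within second title numbers 1 and 2, and 1 to 5 on leaving out single libraries, lowest without APPPS1_6m replicate 24. APPPS1_12m against WT_12m (10) gave 4 with the first title number (Atf5, Gars, Sars and Sdf2l1 were kept, Trib3, Slc7a5, Hsp90b1, Pdia3, Calr and Canx lost), 1 within second number 1, and 4 to 11 by leave-out, lowest without WT_12m replicate 39 or APPPS1_12m replicate 41. The tagged pair with Nlrp3 (1) gave 2 by DESeq2, 3 with sex, 2 and 0 within the second numbers, 6 without the 4 libraries, and 0 to 4 by leave-out, highest without replicate 56. APPPS1_NLRP3_6m against NLRP3_6m (11) gave 4 with RLE, 13 without the 4 libraries, 1 within second number 1, and 4 to 11 by leave-out, lowest without NLRP3_6m replicate 33. APPPS1_NLRP3_12m against NLRP3_12m (8) gave 1 and 2 within the second numbers and 4 to 10 by leave-out, lowest without replicate 43. The tagged pair without Nlrp3 (3) gave 5 by DESeq2, 5 with sex, 8 without the 4 libraries, and 1 to 3 by leave-out, lowest without replicate 54 or 50; it has no libraries of second number 1.

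NLRP3_6m against WT_6m (0) gave 1 with sex and 3 without the 4 libraries. NLRP3_12m against WT_12m (0) gave 2 by DESeq2, 1 with sex, 1 without the 4 libraries, and 0 to 1 by leave-out. APPPS1_NLRP3_12m against APPPS1_12m (4) gave 0 and 10 within the second numbers and 2 to 7 by leave-out, highest without APPPS1_12m replicate 37. Its tagged counterpart (0) gave 2 within second number 2. With age, APPPS1 (10) gave 2 within second number 1 and 6 to 16 by leave-out, lowest without APPPS1_4m replicate 6 or APPPS1_12m replicate 41 and highest without APPPS1_12m replicate 37. APPPS1_NLRP3 (4) gave 2 with sex, 2 within second number 1, 7 without the 4 libraries, and 3 to 4 by leave-out, and NLRP3 (0) gave 0 to 3, highest without NLRP3_12m replicate 42.

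With the tag, WT (0) gave 1 by DESeq2 and 1 without the 4 libraries. NLRP3 (4) gave 0 and 0 within the second numbers and 0 to 5 by leave-out, lowest without NLRP3_12m_Mxo4 replicate 50. APPPS1 (0) gave 1 by DESeq2, 1 and 6 within the second numbers, 2 without the 4 libraries, and 0 to 3 by leave-out, highest without APPPS1_12m replicate 37. APPPS1_NLRP3 (1) gave 2 by DESeq2, 2 without the second number as a term, 2 with sex, 0 within second number 2, 3 without the 4 libraries, and 0 to 2 by leave-out. The 6-month interaction (0) gave 1 by DESeq2. The age interaction (1) gave 2 by DESeq2, 0 with the first title number, 0 and 4 within the second numbers, 2 without the 4 libraries, and 1 to 2 by leave-out. All other counts stayed within 1.5 times the main count. Low counts limit Chac1, Trib3, Atf5, Vldlr and Asns.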
